A study of Mus musculus with 6 samples.

Results

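Autophagy and lysosome genes were compared between WT and RORγtN275D Th17 cells. The members were 38 genes chosen by symbol from the 16244 genes of the deposited table: 23 that build the autophagosome or load it, 13 that encode proteins of the lysosome, and the transcription factor genes *Tfeb* and *Tfe3*, which act on both and were kept apart. All 38 were listed, and all 38 passed the filter on low values, a mean of at least 10 normalized reads over the 6 libraries. Naive CD4+ T cells came from WT mice or from knock-in mice, both given as C57BL/6. The knock-in mice were made with CRISPR-Cas9 and carry the N275D change in RORγt, the transcription factor that defines Th17 cells. The WT stock of the study was bought commercially and is listed as C57BL/6NJ, while no substrain is given for the knock-in mice. Whether the WT donors here were that stock or littermates is not stated, and a difference of substrain was not tested. Both genotypes were stimulated through CD3 and CD28 for 3 days under pathogenic Th17 conditions, for which the study names IL-6, IL-1β and IL-23. Its methods can be read as adding TGF-β and antibodies against IL-4 and IFN-γ. The methods give a general age of 6 to 12 weeks for the mice. The labels give spleen as the tissue, and neither they nor the methods state for these libraries whether the mutant donors carried 1 or 2 mutant alleles, or whether the 3 libraries of a genotype came from separate mice or cultures. The p-values below therefore measure the spread between these libraries, which may be technical.

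Autophagy delivers cytoplasm to the lysosome. A kinase complex around ULK1 starts the process, a lipid kinase complex with Beclin 1 marks the membrane, ATG9 and ATG2 supply lipid, and a ubiquitin-like conjugation system attaches small ATG8 proteins (the LC3 and GABARAP families) to the growing membrane. Receptors such as p62 bind cargo on one side and ATG8 on the other, and the closed vesicle then fuses with a lysosome, where cathepsins and other acid hydrolases digest its content. TFEB and TFE3 are held in the cytoplasm when nutrients are plentiful and, once in the nucleus, turn on many genes of both steps. T cells use autophagy to renew organelles and to adjust metabolism after activation.

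The values are normalized reads, that is, reads per gene divided by 1 size factor per library, and each library had between 17659035 and 18510878 reads on genes. Fold changes are RORγtN275D over WT on the log2(normalized reads + 1) scale, tested with limma across the 11908 genes that passed the filter, and a gene was called at a Benjamini-Hochberg adjusted p under 0.05. The T cell genes *Cd3d*, *Cd3e*, *Cd3g* and *Cd4* were present in every library, with *Cd4* between 7575 and 9520 normalized reads and *Il17a* between 27166 and 32673. Since the mutation is a point change, levels per gene do not check the genotype labels. WT replicate 3 lay farthest from its group. Differences between the genotypes were common, with 50.9% of the genes tested called, 24.7% higher and 26.1% lower in RORγtN275D cells, so a single call among the members is read against that background.

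The autophagy members were mostly higher in RORγtN275D cells, while the lysosome members were split. Of the 23 autophagy members, 16 were called higher, 1 lower and 6 not, so 69.6% were higher beside 24.7% of all genes tested. The libraries of the genotypes did not overlap for 15 of them with RORγtN275D above and 1 below, beside 28.1% and 29.6% of all genes tested. Their median log2 fold change was 0.23, with a range from -0.15 to 1.39, beside a median of -0.0026 over all genes tested. Of the 13 lysosome members, 4 (30.8%) were called higher, 4 (30.8%) lower and 5 not. Their median was -0.05, with a range from -0.37 to 0.62 on the log2 scale. All members but *Wipi1* averaged at least 100 normalized reads, and of the 9581 tested genes at that level 24.5% were called higher and 30.2% lower. Neither *Tfeb* nor *Tfe3* was called. Most of the changes were small: 1 of the 38 members, *Wipi1*, was called at 2-fold or more, beside 3.59% of all genes tested. In bulk RNA of this kind, fewer cells of a type and less RNA per cell cannot be told apart.

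**Figure D1:**
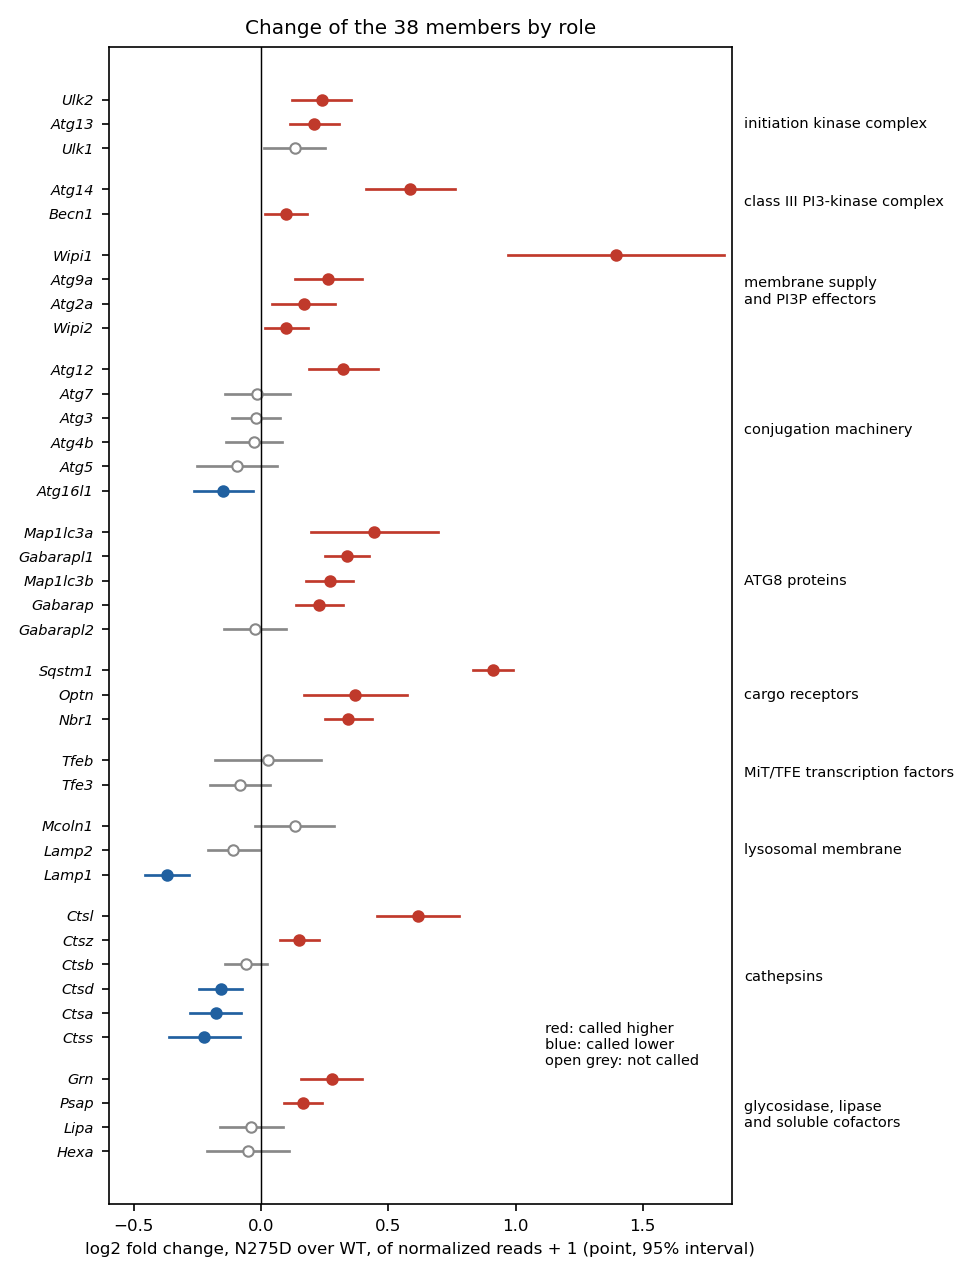
The log2 fold change of each of the 38 members, RORγtN275D over WT on the log2(normalized reads + 1) scale, with its 95% interval from limma, grouped by role (red, called higher; blue, called lower; open grey, not called at an adjusted p under 0.05). The cargo receptors, the membrane supply and lipid PI3P reader genes, and 4 of the 5 ATG8 genes lie right of 0. The conjugation genes and the cathepsins lie on both sides.

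The cargo receptor genes rose together, and *Sqstm1* rose most in normalized reads. *Sqstm1* (GRCm38 chromosome 11, 50200152 to 50210820) encodes p62, which binds ubiquitinated cargo and is itself degraded by autophagy. Its normalized reads were 3204, 3015 and 3133 in the WT libraries and 5974, 5892 and 5723 in the RORγtN275D libraries. Every RORγtN275D library lay far above every WT library, and the replicates of a genotype differed little. The mean went from 3117 ± 95.3 to 5863 ± 128 (SD over 3 libraries), which was 0.91 on the log2 scale (adjusted p = 1.85e-11 from limma, with a standard error of 0.04). That is 1.88-fold, an absolute log2 fold change above that of 95.6% of the genes tested.

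*Nbr1* (chromosome 11, 101552107 to 101581951) encodes a second ubiquitin-binding receptor that works with p62. It had 1492, 1451 and 1420 normalized reads in WT and 1877, 1876 and 1783 in RORγtN275D libraries. The groups did not overlap, and the log2 fold change was 0.34 (adjusted p = 8.28e-06, with a standard error of 0.04). *Optn* (chromosome 2, 5020521 to 5064399) encodes optineurin, a receptor for damaged mitochondria and bacteria. It was expressed at a lower level, with 180, 142 and 161 normalized reads in WT and 198, 214 and 211 in RORγtN275D libraries. The lowest RORγtN275D library was again above the highest WT library, and the log2 fold change was 0.37 (adjusted p = 0.00433, with a standard error of 0.10). Genes on the other strand overlap *Optn* and *Sqstm1*, and whether the counting used strand is not given in the sources used here. Other members overlap annotated genes too, among them *Atg14* and *Ctsl* on the other strand (2238 and 1971 bases). On their own strand, *Atg9a*, *Gabarapl1* and *Ctsl* share 4287, 692 and 395 bases with another annotated gene.

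Summed over the 23 autophagy members, the WT libraries held between 23229 and 23853 normalized reads and the RORγtN275D libraries between 28204 and 29043. *Sqstm1* made up 13.2% ± 0.332 of that sum in WT and 20.4% ± 0.279 in RORγtN275D libraries (SD, n = 3 each). Without *Sqstm1* the sum still differed, at 20419 ± 266 against 22806 ± 335 normalized reads, and the groups did not overlap. Per kilobase of exon, *Sqstm1* went from the fifth place among the 38 members in WT (929 normalized reads per kilobase) to the third in RORγtN275D cells (1747 per kilobase), passing *Ctsd* and *Lamp1*.

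**Figure D2:**
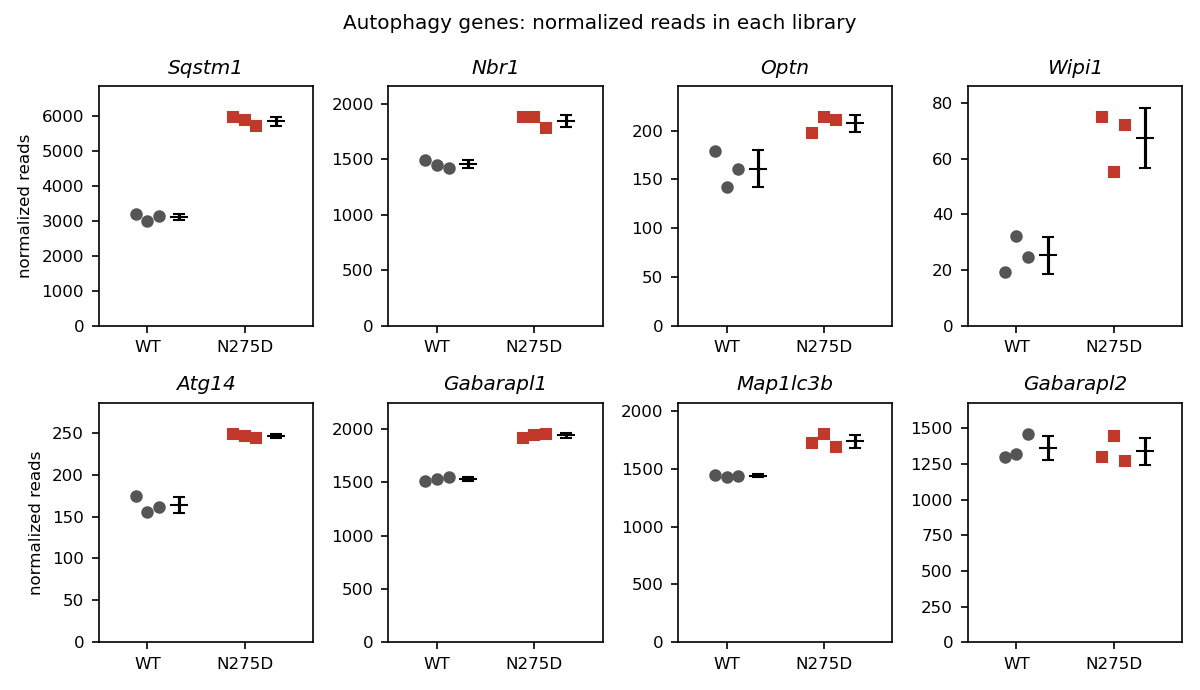
Normalized reads (vertical axes, each from 0) of 8 autophagy members in the 3 WT libraries (grey circles) and the 3 RORγtN275D libraries (red squares), with the mean ± SD in black. The groups are apart for 7 of the genes, most widely for *Wipi1* and *Sqstm1*, and overlap for *Gabarapl2*.

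The 4 genes for membrane supply and for reading the lipid PI3P were all called higher, beside 24.7% of all genes tested. *Wipi1* (chromosome 11, 109573521 to 109611389) encodes a reader of the lipid PI3P on forming autophagosomes and was the least abundant member, with 5.75 normalized reads per kilobase in WT cells. It had 19.2, 32.3 and 24.6 normalized reads in WT and 74.9, 55.2 and 72.1 in RORγtN275D libraries. The RORγtN275D libraries were all above the WT libraries, although they were spread, and the log2 fold change was 1.39 (adjusted p = 2.83e-05, with a standard error of 0.20) or 2.66-fold. At this level the pseudocount lowers the fold change, and over all the settings tried it lay between 1.14 and 1.58 on the log2 scale.

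*Wipi2*, whose product reads the same lipid and recruits ATG16L1, was far more abundant and rose little. Its normalized reads were 1787, 1777 and 1749 in WT and 1886, 1921 and 1886 in RORγtN275D libraries, a log2 fold change of 0.10 (adjusted p = 0.0494), and the call was lost without any 1 library other than WT replicate 3 (adjusted p between 0.00493 and 0.159 over all settings). *Atg9a*, encoding the membrane protein of the vesicles that seed autophagosomes, had 766, 801 and 922 normalized reads in WT and 1000, 1012 and 970 in RORγtN275D libraries, a log2 fold change of 0.26 (adjusted p = 0.00225) with no overlap. *Atg2a*, encoding a lipid transfer protein, had 993, 1007 and 1133 normalized reads in WT and 1194, 1217 and 1102 in RORγtN275D libraries. WT replicate 3 lay above RORγtN275D replicate 3 for *Atg2a*, and its log2 fold change was 0.17 (adjusted p = 0.0248, between 0.000331 and 0.116 under other settings). The call was lost without WT replicate 1 or 2 or RORγtN275D replicate 1 or 2.

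In the class III PI3-kinase complex, which makes PI3P, *Atg14* rose by more than *Becn1*. *Atg14* (chromosome 14, 47540893 to 47568434) encodes the subunit that directs the complex to autophagosomes. It had 175, 155 and 161 normalized reads in WT and 249, 246 and 244 in RORγtN275D libraries. The RORγtN275D libraries were nearly equal and well above WT, with means of 164 ± 9.89 and 246 ± 2.34 (SD over 3 libraries), which differed by 0.59 on the log2 scale (adjusted p = 2.10e-05, with a standard error of 0.08). *Becn1*, encoding Beclin 1, had 2191, 2162 and 2238 normalized reads in WT and 2351, 2354 and 2349 in RORγtN275D libraries. These did not overlap, but the log2 fold change was 0.10 (adjusted p = 0.0449) and the call was lost under 8 of the 16 other settings without a fold minimum (adjusted p between 0.00257 and 0.127), among them without any 1 library other than WT replicate 3. *Becn1* shares 10366 bases with *Cntd1* on the other strand.

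The other subunits of that complex were not members and moved both ways. *Pik3c3*, which encodes its catalytic subunit VPS34, went from 899 ± 40.7 to 1541 ± 13.4 normalized reads (log2 fold change 0.78, adjusted p = 1.88e-09), the highest among 34 further autophagy genes. *Pik3r4*, encoding the scaffold subunit VPS15 and named here after its value was seen, was lower, with a log2 fold change of -0.15 (adjusted p = 0.0192).

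Of the initiation kinase genes, *Ulk2* and *Atg13* were called higher. *Ulk2*, encoding a kinase related to ULK1, had 582, 607 and 572 normalized reads in WT and 694, 704 and 678 in RORγtN275D libraries, a log2 fold change of 0.24 (adjusted p = 0.00172). *Atg13*, encoding the adaptor that joins the kinase to its partners, had 1135, 1103 and 1127 in WT and 1257, 1313 and 1321 in RORγtN275D libraries, a log2 fold change of 0.21 (adjusted p = 0.00120). Neither gene's groups overlapped. *Ulk1* had 652, 648 and 699 normalized reads in WT and 751, 740 and 698 in RORγtN275D libraries. WT replicate 3 and RORγtN275D replicate 3 were nearly equal, and the log2 fold change of 0.13 was not called (adjusted p = 0.0613, between 0.0119 and 0.194 under other settings, 3 of which called it).

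The conjugation genes, in contrast, did not move as a group: of 6, 1 was called higher (16.7%), 1 lower (16.7%) and 4 not. Over all genes tested, 24.7% were called higher and 26.1% lower. *Atg12* (chromosome 18, 46732417 to 46741724), encoding the ubiquitin-like protein that is joined to ATG5, had 431, 427 and 413 normalized reads in WT and 497, 527 and 567 in RORγtN275D libraries, a log2 fold change of 0.32 (adjusted p = 0.00057). *Atg16l1*, encoding the protein that places the ATG12-ATG5 pair on membranes, had 772, 804 and 844 in WT and 741, 696 and 744 in RORγtN275D libraries. It was lower by 9.89%, a log2 fold change of -0.15 (adjusted p = 0.0316), a call that was lost under 7 of the 16 other settings without a fold minimum (adjusted p between 0.0252 and 0.147), among them without WT replicate 2 or 3 or RORγtN275D replicate 1 or 2.

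*Atg5*, the partner of ATG12, had 475 ± 39.7 normalized reads in WT and 444 ± 32.1 in RORγtN275D cells (SD over 3 libraries). The log2 fold change of -0.10 (95% interval -0.25 to 0.06, adjusted p = 0.30) was not called, though it was without WT replicate 3 (adjusted p = 0.0411, up to 0.754 under other settings). The E1-like enzyme gene *Atg7* had a log2 fold change of -0.02 (interval -0.14 to 0.11), the E2-like enzyme gene *Atg3* -0.02 (interval -0.12 to 0.07) and the protease gene *Atg4b* -0.03 (interval -0.14 to 0.08), and the libraries of the genotypes overlapped for all 3.

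The ATG8 genes, the substrates of that machinery, were called higher in 4 of 5 cases (80%), beside 24.7% of all genes tested. *Gabarapl1* (chromosome 6, 129533192 to 129542331) had 1515, 1533 and 1555 normalized reads in WT and 1918, 1948 and 1955 in RORγtN275D libraries. The replicates agreed closely, and the log2 fold change was 0.34 (adjusted p = 4.61e-06, with a standard error of 0.04). *Map1lc3b*, which encodes LC3B, the ATG8 protein most often followed as a sign of autophagosomes, had 1449, 1430 and 1440 in WT and 1718, 1801 and 1690 in RORγtN275D libraries, a log2 fold change of 0.27 (adjusted p = 8.56e-05).

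*Gabarap* had 1424, 1411 and 1459 normalized reads in WT and 1725, 1662 and 1644 in RORγtN275D libraries, a log2 fold change of 0.23 (adjusted p = 0.000365). *Map1lc3a*, encoding LC3A, was the least abundant of the 5 in normalized reads, with 94.9, 74.6 and 93.3 in WT and 117, 122 and 118 in RORγtN275D libraries, and a log2 fold change of 0.44 (adjusted p = 0.00502, with a standard error of 0.12). None of these 4 overlapped between the groups. *Gabarapl2* did: it had 1302, 1323 and 1462 normalized reads in WT and 1297, 1448 and 1272 in RORγtN275D libraries, a log2 fold change of -0.03 (95% interval -0.15 to 0.10, adjusted p = 0.735) that changed sign without WT replicate 3 (0.03), without RORγtN275D replicate 3 (0.01) and with quantile normalization (0.0034). The longest stretch that transcripts of any pair of the 5 genes shared was 17 bases, against reads of 150 bases. *Map1lc3b* overlaps another annotated gene on its own strand, so its reads could be split between them.

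**Figure D3:**
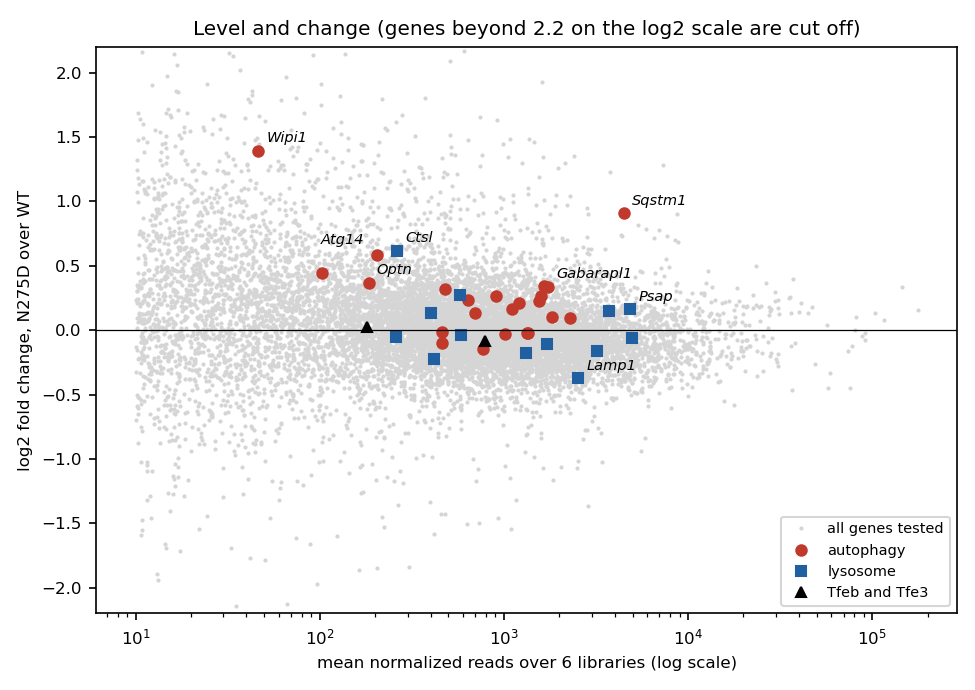
Log2 fold change, RORγtN275D over WT, against the mean normalized reads over the 6 libraries (log scale) for the 11908 genes tested (grey, a few beyond the axis not drawn), with the autophagy members (red circles), the lysosome members (blue squares) and *Tfeb* and *Tfe3* (black triangles). *Sqstm1* stands among the abundant members at 0.91, *Wipi1* among the scarce ones at 1.39, and *Lamp1* is the lowest member at -0.37.

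Among 34 further genes of the pathway that were not members, 16 were called higher, 5 lower and 13 not, and their median change was 0.17 on the log2 scale. The share called higher was 47.1% and the share called lower 14.7%, beside 24.7% and 26.1% of all genes tested. Without RORγtN275D replicate 2 or 3, the lower calls were 3. The highest after *Pik3c3* was *Tecpr1*, encoding a tether between autophagosomes and lysosomes, at 996 ± 45.6 against 1435 ± 42.9 normalized reads (log2 fold change 0.53, adjusted p = 2.76e-07). The lowest were *Rubcn*, encoding Rubicon, an inhibitor of autophagosome maturation (1062 ± 50.7 against 869 ± 10.1 normalized reads, log2 fold change -0.29, adjusted p = 0.00019), and *Atg2b*, a paralog of *Atg2a* (2818 ± 47.3 against 2415 ± 73.1 normalized reads, log2 fold change -0.22, adjusted p = 0.000235). The paralogs *Atg2a* and *Atg2b* were thus called in opposite directions. The *Atg2a* groups overlapped, however, and its call was lost under 5 of the 16 other settings without a fold minimum.

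*Tfeb* had 155, 179 and 202 normalized reads in the WT libraries and 180, 185 and 180 in the RORγtN275D libraries. All 3 RORγtN275D libraries lay within the WT range, and the log2 fold change was 0.03 (95% interval -0.18 to 0.24, adjusted p = 0.83). *Tfe3* had 775, 809 and 846 normalized reads in WT and 807, 736 and 752 in RORγtN275D libraries, which also overlapped, with a log2 fold change of -0.08 (interval -0.20 to 0.04, adjusted p = 0.231). Transcript levels do not show where these proteins are in the cell, which is how they are mainly controlled. In the folliculin complex, which helps to hold TFEB and TFE3 in the cytoplasm, *Fnip1* went from 579 ± 72.8 to 949 ± 63.0 normalized reads (log2 fold change 0.72, adjusted p = 1.63e-06). It was the only one called of the 4 further genes tested for the folliculin complex and the TFEB family. *Flcn* (log2 fold change -0.03, adjusted p = 0.631) and *Fnip2* (0.15, adjusted p = 0.163) overlapped between the groups, and *Mitf* (0.28, adjusted p = 0.0503) did not.

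Of the 3 lysosomal membrane genes, *Lamp1* fell. *Lamp1* (chromosome 8, 13159161 to 13175338) encodes one of the most abundant glycoproteins of the lysosome's membrane, which also reaches the surface of T cells that degranulate. It had 2796, 2920 and 2810 normalized reads in WT and 2111, 2244 and 2239 in RORγtN275D libraries. The groups were well apart, with means of 2842 ± 68.1 and 2198 ± 75.2 (SD over 3 libraries), which differed by -0.37 on the log2 scale (adjusted p = 2.00e-06, with a standard error of 0.04). *Lamp1* shares 3317 bases with *Grtp1* on the other strand.

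*Lamp2*, encoding the related protein needed for fusion and for chaperone-mediated autophagy, had 1826, 1840 and 1673 normalized reads in WT and 1597, 1669 and 1679 in RORγtN275D libraries. WT replicate 3 fell among the RORγtN275D libraries, and the log2 fold change of -0.11 was not called (adjusted p = 0.0651, but 0.00212 without WT replicate 3 and up to 0.352 under other settings). *Mcoln1*, encoding the calcium channel TRPML1, had 401, 371 and 381 in WT and 450, 378 and 438 in RORγtN275D libraries. These overlapped, with a log2 fold change of 0.13 (95% interval -0.02 to 0.29, adjusted p = 0.147, but 0.0348 without RORγtN275D replicate 2 and up to 0.438 under other settings).

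The libraries did not overlap for any of the 6 cathepsin genes, beside 57.7% of all genes tested, and the genes moved in both directions. *Ctsl* (chromosome 13, 64361890 to 64370772), encoding the endopeptidase cathepsin L, changed most of the 6, with 203, 209 and 207 normalized reads in WT and 340, 304 and 308 in RORγtN275D libraries. The WT libraries were nearly equal and all RORγtN275D libraries far above them, a log2 fold change of 0.62 (adjusted p = 5.45e-06, with a standard error of 0.08). *Ctsz*, encoding the carboxypeptidase cathepsin Z, had the highest level per kilobase of the 38 members in both genotypes. It had 3491, 3558 and 3588 normalized reads in WT and 3979, 3976 and 3847 in RORγtN275D libraries, a log2 fold change of 0.15 (adjusted p = 0.00283).

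The other cathepsin genes lay lower. *Ctsd*, encoding the aspartic protease cathepsin D, had 3359, 3383 and 3397 normalized reads in WT and 3152, 3036 and 2902 in RORγtN275D libraries, a log2 fold change of -0.16 (adjusted p = 0.00358, between 0.00088 and 0.0517 under other settings, the latter with quantile normalization). *Ctsa*, encoding the carboxypeptidase that also protects other lysosomal enzymes, had 1419, 1341 and 1462 in WT and 1272, 1238 and 1219 in RORγtN275D libraries, a log2 fold change of -0.18 (adjusted p = 0.00507).

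*Ctss*, encoding cathepsin S, which trims the invariant chain in antigen-presenting cells, had 444, 446 and 452 normalized reads in WT and 412, 361 and 377 in RORγtN275D libraries. Its log2 fold change was -0.22 (adjusted p = 0.0101), and the call was lost without RORγtN275D replicate 2 (adjusted p = 0.0622, with the lowest of the other settings at 0.00389). *Ctsb*, encoding cathepsin B, had 4959, 4905 and 5315 normalized reads in WT and 4889, 4891 and 4779 in RORγtN275D libraries. WT replicates 1 and 2 lay just above the RORγtN275D libraries, and the log2 fold change of -0.06 was not called (95% interval -0.14 to 0.02, adjusted p = 0.215). *Ctsd* overlaps another annotated gene on its own strand. Summed over the 6 genes, the normalized reads overlapped between the genotypes, from 13842 to 14421 in WT and from 13432 to 14044 in RORγtN275D libraries.

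**Figure D4:**
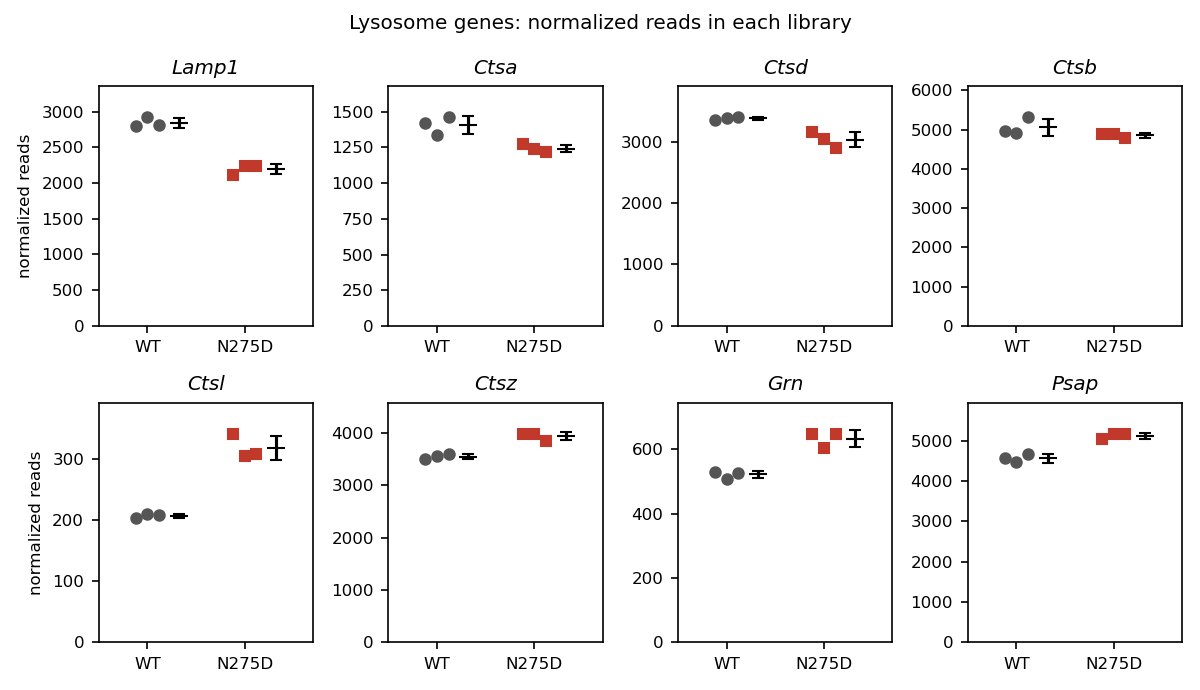
Normalized reads (vertical axes, each from 0) of 8 lysosome members in the 3 WT libraries (grey circles) and the 3 RORγtN275D libraries (red squares), with the mean ± SD in black. *Lamp1*, *Ctsa* and *Ctsd* are lower and *Ctsl*, *Ctsz*, *Grn* and *Psap* higher in RORγtN275D libraries, and the *Ctsb* groups nearly touch.

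Of the soluble proteins other than cathepsins, *Grn* and *Psap* rose. *Grn*, encoding progranulin, which is cut into granulins in the lysosome, had 530, 508 and 526 normalized reads in WT and 648, 603 and 647 in RORγtN275D libraries, a log2 fold change of 0.28 (adjusted p = 0.000767). *Psap*, encoding the precursor of the saposins that help to degrade sphingolipids, had 4562, 4464 and 4680 in WT and 5035, 5154 and 5172 in RORγtN275D libraries, a log2 fold change of 0.16 (adjusted p = 0.0012). Neither overlapped between the groups. The acid lipase gene *Lipa* (log2 fold change -0.04, 95% interval -0.16 to 0.08) and *Hexa*, encoding a subunit of β-hexosaminidase (log2 fold change -0.05, interval -0.21 to 0.11), did overlap and were not called.

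Over all 13 lysosome members, the summed normalized reads were 24813 to 25349 in WT and 24461 to 24727 in RORγtN275D libraries. The groups did not overlap, and the means differed by -0.02 on the log2 scale. The summed autophagy members, by the same measure, differed by 0.28.

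Lysosomal genes under TFEB are known for a promoter element named CLEAR, whose core is GTCACGTG and contains the E-box CACGTG. Promoter sequences from RefSeq (GRCm38.p6, 250 bases before to 50 bases after the start site) were matched for 33 of the 38 members, and the CLEAR core was searched on both strands. It was in 7 of the 33 (21.2%), in 4 of 12 lysosome members and 3 of 19 autophagy members. Beside these stood 4.91% of 9578 tested genes with a promoter and 2.55% of all 27025 genes with a promoter. A gene was counted if any of its promoters held the core. No promoter was matched for *Becn1*, *Atg12*, *Atg16l1*, *Map1lc3a* and *Ctsb*. The 120 bases before the start site are shown for *Lamp1* and *Ctsd*, which fell, and for *Mcoln1* and *Atg3*, which were not called. Each sequence runs 5′ to 3′ on the gene's strand with the CLEAR core or E-box in capitals, where CACGTGAC is the core read on the other strand.
Lamp1, chr8:13159041-13159160 (+): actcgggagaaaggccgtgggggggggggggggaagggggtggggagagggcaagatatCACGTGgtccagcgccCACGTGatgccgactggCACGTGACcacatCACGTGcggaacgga
Ctsd, chr7:142387828-142387947 (-): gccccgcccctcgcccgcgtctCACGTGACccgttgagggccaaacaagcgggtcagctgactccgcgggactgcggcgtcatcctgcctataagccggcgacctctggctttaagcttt
Mcoln1, chr8:3500399-3500518 (+): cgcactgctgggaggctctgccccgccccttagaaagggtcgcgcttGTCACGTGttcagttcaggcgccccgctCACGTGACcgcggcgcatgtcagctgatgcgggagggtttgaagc
Atg3, chr16:45158709-45158828 (+): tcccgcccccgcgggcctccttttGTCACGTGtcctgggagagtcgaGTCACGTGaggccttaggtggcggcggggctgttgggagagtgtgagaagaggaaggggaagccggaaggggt

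In the whole promoter searched, *Lamp1* has 1 CLEAR core among 4 E-boxes, and *Ctsd*, *Mcoln1* and *Atg3* have 2 cores each, of which 1 in *Ctsd* lies outside the window shown. The 7 members with the core were *Atg14*, called higher, *Lamp1*, *Ctsa* and *Ctsd*, called lower, and *Atg3*, *Atg7* and *Mcoln1*, not called. Of the 26 members with a promoter and no core, *Sqstm1* among them, 16 were called higher and 1 lower. By set, these were 12 higher and 0 lower of 16 autophagy members, and 4 higher and 1 lower of 8 lysosome members. Among the further lysosome genes described below, 4 of 14 with the core were called higher and 3 lower, against 14 and 8 of 51 without it. Of 28 further autophagy genes with a promoter, 3 had the core and are named here for that reason. *Nrbf2* (log2 fold change 0.35) and *Retreg1* (0.17) were called higher and *Tbk1* (-0.17) lower. Over members and further genes together, 7 of 24 with the core were called higher and 7 lower, against 40 and 13 of 102 without it. Over all tested genes with a promoter, 21.9% of those with the core were called higher and 28.7% lower, against 24.5% and 26.1% of those without it. A match describes letters in this window and is not a measured binding site.

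The rest of the lysosome was represented by 87 further genes, of which 86 were in the table and 85 were tested. Of these 24 were called higher, 14 lower and 47 not, a share of 44.7% called beside 50.9% of all genes, and a median of 0.02 on the log2 scale. Without RORγtN275D replicate 3, the lower calls were 9. Of 16 subunits of the V-ATPase, the proton pump that acidifies the lysosome, 3 were called higher, 1 lower and 12 not. Those shares were 18.8% higher and 6.25% lower, beside 24.7% and 26.1% of all genes tested. *Atp6v0a1* went from 537 ± 5.57 to 748 ± 30.2 normalized reads (log2 fold change 0.48, adjusted p = 2.84e-06) and *Atp6v1g1* from 786 ± 9.49 to 945 ± 28.4 (0.27, adjusted p = 0.000331). *Atp6v1h* was the one called lower, from 616 ± 12.5 to 547 ± 18.9 normalized reads (log2 fold change -0.17, adjusted p = 0.0167).

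Of 37 other hydrolase genes tested, 11 (29.7%) were called higher and 8 (21.6%) lower, beside 24.7% and 26.1% of all genes tested. *Galc*, encoding the galactocerebrosidase that is lost in Krabbe disease, had 354, 356 and 348 normalized reads in WT and 684, 656 and 674 in RORγtN275D libraries. It thus nearly doubled with no overlap, at 1.90-fold (log2 fold change 0.93, standard error 0.06, adjusted p = 2.06e-09). The lowest were *Gusb*, encoding β-glucuronidase (2192 ± 70.5 against 1714 ± 40.1 normalized reads, log2 fold change -0.35), and *Ctsc*, encoding cathepsin C, which activates granule proteases (2838 ± 185 against 2288 ± 94.7 normalized reads, log2 fold change -0.31).

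Of 22 other lysosomal membrane genes, 8 (36.4%) were called higher and 3 (13.6%) lower, beside 24.7% and 26.1% of all genes tested. *Cd63*, encoding a tetraspanin of late endosomes and lysosomes, was scarce and went from 34.4 ± 3.57 to 71.4 ± 5.91 normalized reads (log2 fold change 1.04, adjusted p = 3.75e-05). *Ctns*, encoding the cystine exporter, had a log2 fold change of 0.35, and the lowest were the transporter genes *Mfsd12* at -0.31 and *Mfsd1* at -0.26. Of 6 genes for mannose 6-phosphate tagging and sorting, 1 (16.7%) was called higher and 2 (33.3%) lower. Over all genes tested the shares were again 24.7% and 26.1%. *Gnptab*, encoding the enzyme that adds the tag, had a log2 fold change of 0.20. *Nagpa*, encoding the enzyme that uncovers it, fell from 832 ± 81.3 to 573 ± 19.1 normalized reads (log2 fold change -0.53, adjusted p = 5.73e-06), and the receptor gene *M6pr* from 4953 ± 18.3 to 4522 ± 57.7 (-0.13, adjusted p = 0.00469).

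**Figure D5:**
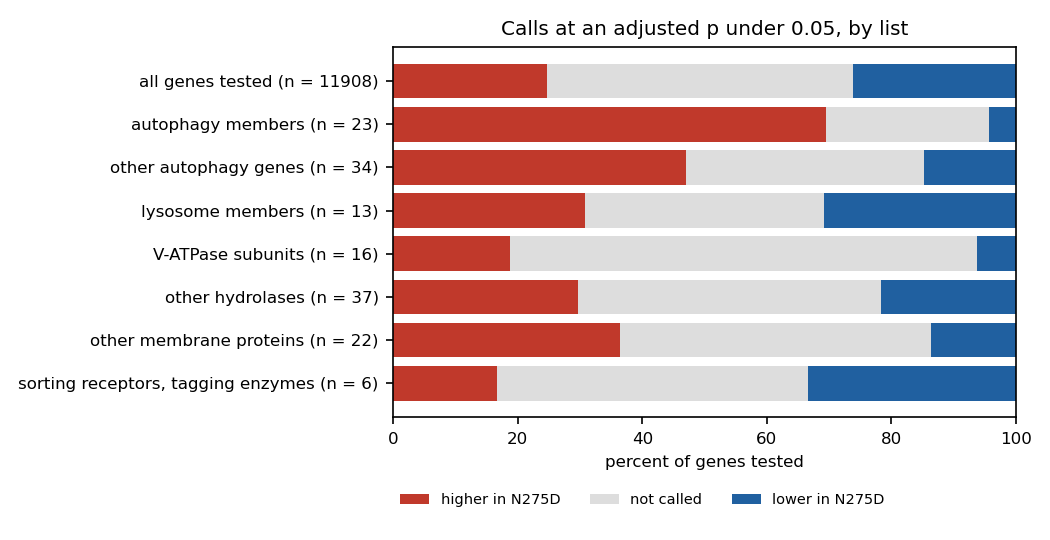
Percent of the genes tested in each list (horizontal axis) that were called higher (red), lower (blue) or neither (grey) in RORγtN275D cells at an adjusted p under 0.05, with the number of genes tested beside each name. The autophagy members and the further autophagy genes have the longest red bars, 69.6% and 47.1% beside 24.7% of all genes tested.

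Lysosomal genes are also abundant in phagocytes, so markers of other cells were measured beside them. Of 15 monocyte and macrophage markers, 12 were in the table and 4 were abundant enough to test, of which *Cd14* was higher (log2 fold change 0.99) and *Adgre1* lower (-1.70). Summed over those 12, the level was 126 to 141 normalized reads in WT and 151 to 181 in RORγtN275D libraries, with no overlap. *Cd68*, the most abundant, had 43.4 to 55.5 normalized reads in WT and 53.3 to 72.9 in RORγtN275D libraries, which overlapped. *Cybb*, at 17.7 to 23.2 against 20.1 to 29.9, and *Itgam*, at 8.84 to 11.1 against 7.02 to 12.8, overlapped too. *Lyz2* had 3.03 to 6.06 against 7.02 to 8.98, and *Fcer1g* 2.02 to 4.91 against 6.99 to 9.03. For both, every RORγtN275D library lay above every WT library, and the reverse held for *Adgre1*. *Csf1r* reached at most 3.99 normalized reads, *Aif1* at most 2.96, and *Tyrobp* was at 0 in all libraries but RORγtN275D replicate 1. Summed dendritic cell markers were 52.5 to 77.6 in WT and 83.0 to 102 in RORγtN275D libraries, and B cell markers 1126 to 1165 and 1707 to 1781, most of it *Ebf1*. Summed CD8 T and natural killer cell markers were 201 to 216 in WT and 284 to 325 in RORγtN275D libraries. The part of these cells in the results above was not tested.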

How the data were processed

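RNA-seq of 3 WT and 3 RORγtN275D Th17 libraries was analysed, with genotype and replicate taken from the labels. The methods of the study name STAR with mm10, featureCounts and DESeq2, with no versions or strand setting. The labels and the methods name different library kits. The authors deposited signal values, which are reads of a gene divided by 1 size factor per library, and 100% of them were whole multiples of it within 1e-06. The authors' table also holds log2 fold changes and q-values, which were not used.

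The 38 members and the other gene lists were chosen with earlier results of these data known. Normalized reads plus 1 were put on the log2 scale, and the 11908 of 16244 genes with a mean of at least 10 were tested with limma (version 3.58.1, R 4.3.3, trended prior), without a block, with Benjamini-Hochberg adjustment over all of them. In this design the smallest two-sided p of an exact permutation test for 1 gene is 0.1. All members were named, and from each role of the other lists up to 2 of the highest and 2 of the lowest called genes whose genotypes did not overlap; exceptions are named as such, and some genes are not reported here. Coordinates and promoters are from RefSeq (GRCm38.p6, the build mm10; 16135 genes matched by gene number), and levels per kilobase use the exon length of GENCODE for GRCm38. Alternatives were pseudocounts of 0.1 and 10, means above 0 or of at least 100, TMM and quantile scaling, no trend, a replicate block, each library left out, a 1.2-fold minimum, and edgeR (4.0.16) and DESeq2 (1.42.0) on the recovered reads. The limma step was tested on simulated data.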

Additional observations from a re-analysis of the deposited data

How the results depend on the processing

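Of the 25 members called, 19 kept their call and direction under all alternatives without a fold minimum that tested them, *Sqstm1* (log2 fold change 0.89 to 0.98), *Lamp1* (-0.39 to -0.30), *Ctsl* (0.55 to 0.65) and *Atg14* (0.50 to 0.63) among them. Over 607 combinations of gene and such an alternative, 30 lost a call, 6 gained one and 10 changed sign. The single lower autophagy call, *Atg16l1*, was lost without a prior trend, with the replicate block and with DESeq2, each giving 0, and leaving out a library gave 0 to 1. DESeq2 lowered the lower calls among further autophagy genes to 3 and among further lysosome genes to 9; leaving out a library gave 3 (without RORγtN275D replicate 2 or 3) to 6 (without WT replicate 3) and 9 (without RORγtN275D replicate 3) to 16 (without WT replicate 3). A 1.2-fold minimum gave 1546 lower calls over all genes and raised the share higher from 48.7% to 56.6%. It left 13 of the 25 members called, with 10 higher and 0 lower autophagy members and 2 higher and 1 lower lysosome members. Outside the members it left 10 higher and 1 lower further autophagy genes and 4 lower further lysosome genes. Sign changes were all in genes not called: quantile normalization gave log2 fold changes of 0.004111 for *Atg3*, 0.003396 for *Gabarapl2*, -0.07172 for *Tfeb* and 0.03813 for *Ctsb*. Leaving out 1 library gave -0.04507 to 0.00596 for *Atg7*, -0.06762 to 0.1216 for *Tfeb*, -0.08313 to 0.02602 for *Gabarapl2* and -0.05725 to 0.0142 for *Atg4b*. The cause of these changes was not tested. Same-numbered libraries did not deviate together (r = -0.05, 0.04 and -0.08), and the block gave 5727 calls over all genes beside 6056, ending the calls of *Becn1* (adjusted p = 0.104), *Wipi2* (0.111) and *Atg16l1* (0.0521). Depth limits *Wipi1*, at 19.2 to 32.3 normalized reads in WT.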
